A study of Carex littledalei with 18 samples.

Results

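The genes described here are 123 abundant leaf transcripts of the alpine sedge Kobresia littledalei (Carex littledalei) that were read strongly in one library and hardly at all in another library of the same time point. They were chosen by their values. A gene was taken if its mean over 16 libraries was at least 10 CPM (a gene's count scaled to the library total) and if, within at least one of the times 0.5, 12, 24 or 48 h, it had at least 100 reads in one library and at most 2 in another. Of 214531 assembled genes 11585 had a mean of at least 10 CPM, and 123 of these, or 1.06%, met the limits on reads. Below, a gene is called on in a library with at least 100 reads, off with at most 2, and between otherwise. The on-off contrast within those 4 times is what chose the genes, so it is a description and carries no test.

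The leaves came from field plants that grew for 7 days in pots at 25 °C and were then kept at -5 °C for 0, 0.5, 4, 12, 24 or 48 h. Each time was a separate pot with 3 libraries, 18 in all, and the labels name no genotype, allele or second agent for any of them. The labels do not say whether the 3 replicates of a time were separate plants, so the spread between replicates may be technical, and time and pot cannot be told apart. Equal values stood in all 214531 rows under 0 h replicate 1 and under 4 h replicate 1. Both were left out, so that 0 h and 4 h have 2 libraries each and the remaining times 3. Totals ran from 18895399 to 32345479 counts, so that 2 reads stood for 0.0618 to 0.106 CPM and 100 reads for 3.09 to 5.29 CPM. In leaf tissue, fewer cells of a type and less RNA per cell cannot be told apart, and CPM is not corrected for gene length.

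The identifiers are those of a Trinity assembly, which builds transcripts from the reads without a genome. Trinity groups transcripts that share sequence into a component and divides the component into genes, so that alleles, near-identical copies and fragments of one plant gene can stand as separate rows. Genes of one component can therefore take each other's place between samples with their sum steady, or come and go with nothing in their place. The files pair no identifier with a gene name or sequence, so no role is given to any of these genes.

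The 123 genes lay in 118 components, with 2 genes in each of 5 components and 1 in each of the other 113. Their mean levels ran from 10.04 to 279 CPM with a median of 16.2 CPM, against a median of 25.3 CPM in the 11462 other genes with a mean of at least 10 CPM. The genes just inside the limit on the mean had 10.04 and 10.04 CPM, and those just outside that met the limits on reads had 9.96 and 9.92 CPM. Of the 1968 values that the 123 genes have in 16 libraries, 947 were on (48.1%), 651 were off (33.1%) and 370 were between (18.8%). A gene was off in 1 to 15 libraries, with a median of 3, and 28 genes were off in 1 library. Among the other abundant genes, 9895 (86.3%) were on in all 16 libraries and 48 were off in any. The share of a library's counts held by the 123 genes was 3.17% in 12 h replicate 1, 0.639% in 24 h replicate 2 and at most 0.371% elsewhere.

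Genes read almost only in that library made up 2.89% of the counts of 12 h replicate 1 and 0.367% of those of 24 h replicate 2. In 34 of the 123 genes, at least 90% of all reads came from a single library: 12 h replicate 1 for 20 genes, 24 h replicate 2 for 13 and 12 h replicate 2 for 1. These 34 reached a mean of 10 CPM through that library alone. The other 89 genes, in 85 components, spread their reads over several libraries. The limit of 90% was set after the values were seen, and both kinds are kept apart below as a description.

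**Figure D1:**
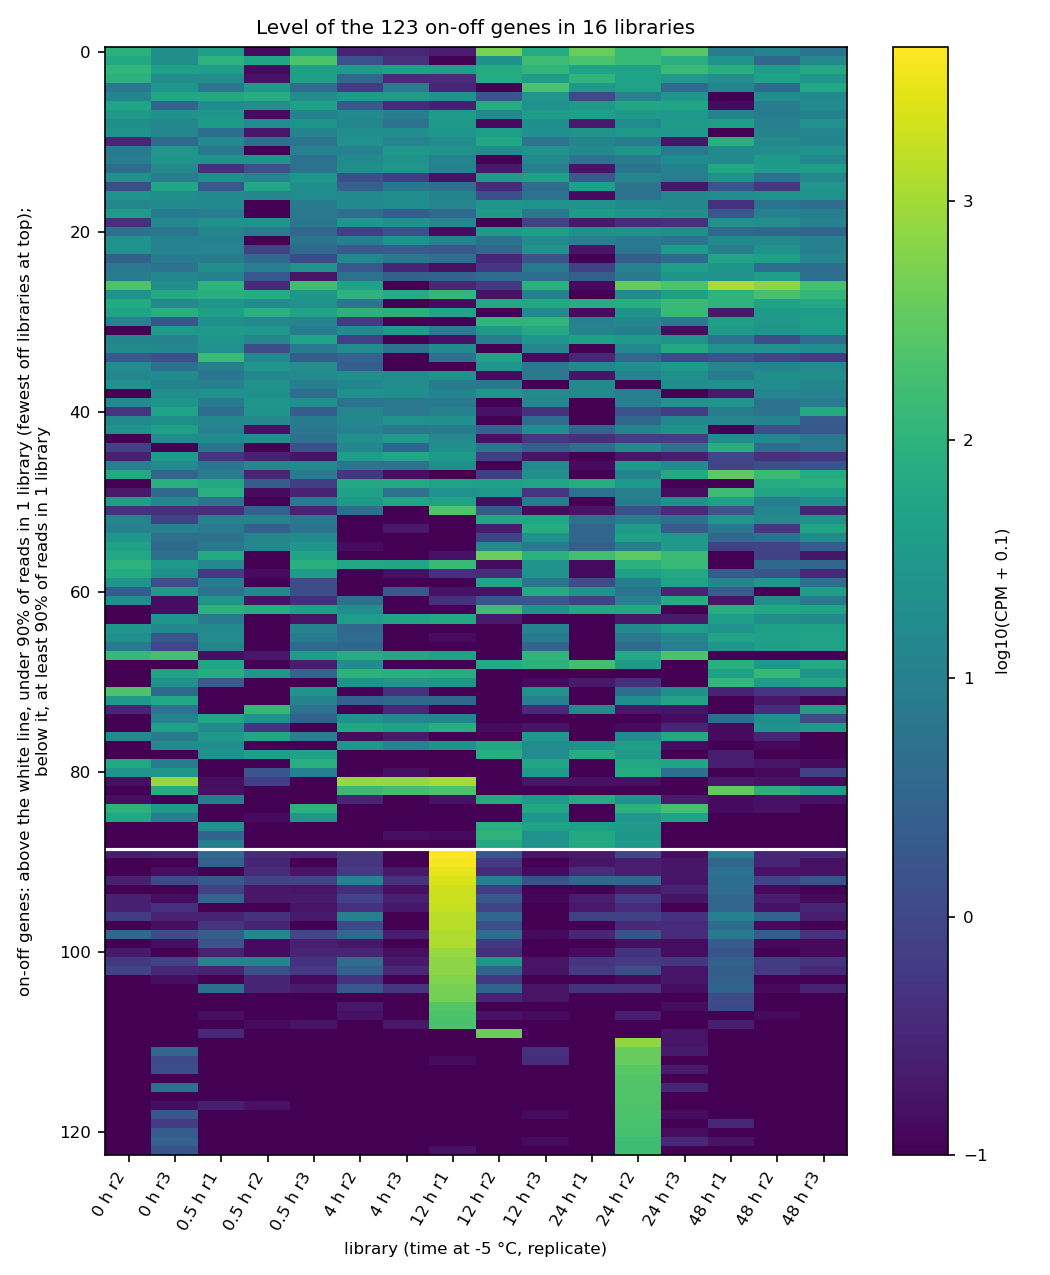
Level of the 123 genes as log10(CPM + 0.1), 1 row per gene and 1 column per library ordered by time at -5 °C. Above the white line are the 89 genes with under 90% of their reads in 1 library, ordered by the number of libraries in which they were off, and below it are the 34 genes read almost only in 12 h replicate 1, 12 h replicate 2 or 24 h replicate 2.

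The genes of 12 h replicate 1 included the most abundant, and 7 of the 10 highest means among the 123 genes belonged to them. TRINITY_DN194973_c3_g1 had 4443, 1.64 and 0.0771 CPM in 12 h replicates 1, 2 and 3. In the other times it had 0.13 and 0.146 CPM in the 0 h leaves, 3.7, 0.275 and 0.188 CPM in the 0.5 h leaves, 0.446 and 0 CPM in the 4 h leaves, 0.11, 0.897 and 0.0399 CPM in the 24 h leaves and 8.96, 0.2 and 0.231 CPM in the 48 h leaves. It was high in 1 of 3 libraries at 12 h, and the highest of the other 15 libraries was 48 h replicate 1. The same library held 3894 CPM of TRINITY_DN197087_c1_g1, 3010 CPM of TRINITY_DN198201_c2_g2, 2388 CPM of TRINITY_DN201912_c7_g1 and 1883 CPM of TRINITY_DN203478_c0_g1. It also held 1859 CPM of TRINITY_DN202565_c2_g2 and 1743 CPM of TRINITY_DN201572_c1_g3.

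Together the 20 genes, from 20 components, made up 28902 CPM or 2.89% of the counts of 12 h replicate 1. Their summed level was 72.8 CPM in 48 h replicate 1, 60.4 CPM in 12 h replicate 2, 38.6 CPM in 4 h replicate 2, 33.3 CPM in 0.5 h replicate 1 and 30.9 CPM in 0.5 h replicate 2, and between 1.81 and 10.8 CPM in the other 10 libraries. For 13 of the 20 the second highest library was 48 h replicate 1. These sums come from some of the genes more than others, and 11 of the 20 were off in at least 8 libraries. The on-off limits were met at 12 h only by 14 of the 20.

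The 13 genes of 24 h replicate 2, from 12 components, were closer to absent elsewhere. Each had between 5157 and 24832 reads in that library, 98.6% to 100% of all its reads, and 0 reads in at least 10 other libraries. Their summed level was 3674 CPM in 24 h replicate 2, against 18.8 CPM in 0 h replicate 3 and at most 0.838 CPM in the other 14 libraries. TRINITY_DN189937_c0_g2, named after its values were seen, had 0, 768 and 0.0798 CPM in 24 h replicates 1, 2 and 3 and 0 reads in all 13 libraries of the other times. For 9 of the 13 the second highest library was 0 h replicate 3, with at most 100 reads. The 1 gene of 12 h replicate 2, TRINITY_DN196820_c1_g2, also named after its values were seen, had 0, 398 and 0 CPM in the 12 h leaves, 0.244 CPM in 0.5 h replicate 1 and 0.0798 CPM in 24 h replicate 3, and 0 reads in the other 11 libraries.

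The remaining 89 genes were on in some libraries and off in others at ordinary leaf levels. Their median level over the libraries in which they were on ranged from 6.71 to 826 CPM, with a median over genes of 20.6 CPM. Of the 89, 56 were off in 1 to 3 libraries, 25 in 4 to 8 and 8 in more than 8, up to 11. In 72 of them at least 1 off library had 0 reads. Set against 3 reads in the shallowest library where the gene was off, the median on level was at least 46.1-fold higher for every one of the 89 and 170-fold higher for the median gene. These bounds cover counting error only, and the limits on reads that chose the genes force a gap of this kind. Among the libraries where a gene was on, its highest level was 8.52-fold its lowest in the median gene.

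**Figure D2:**
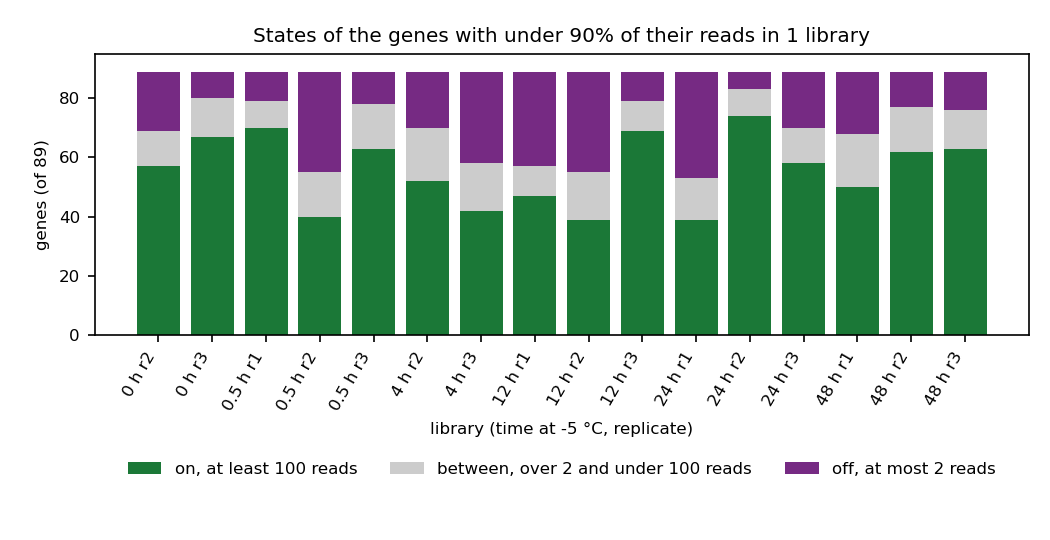
Number of the 89 genes that were on (at least 100 reads, green), between (grey) and off (at most 2 reads, purple) in each of the 16 libraries. The off count ran from 6 genes in 24 h replicate 2 to 36 in 24 h replicate 1, so the extremes lay within 1 time.

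The number of off genes differed as much within a time as between times. Of the 89 genes 36 were off in 24 h replicate 1, 6 in 24 h replicate 2 and 19 in 24 h replicate 3. At 12 h 32, 34 and 10 were off in replicates 1, 2 and 3, and at 0.5 h 10, 34 and 11. At 0 h 20 and 9 were off, at 4 h 19 and 31, and at 48 h 21, 12 and 13. The off count did not follow depth in order: 0.5 h replicate 2, with 34 off, had 29079997 counts, and 0 h replicate 3, with 9 off, had 20594902.

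On and off states recurred across times. Of the 89 genes 63 were off in a library of 2 or more times, and 63 were both on at 2 or more times and off at 2 or more. A gene with an on and an off library within 1 time is called split there, and 50 of the 89 were split at 2 or more times: 28 at 2, 17 at 3 and 5 at 4. Among all 123 genes 31 were on in a library of every time (25.2%), all of them among the 89, and 27 were off in a library of every time, 3 of them among the 89. Among the 123 genes, 36 were split at 0.5 h and 78 at 12 h. A further 56 splits fell at 24 h and 12 at 48 h. Over all 123 genes, 71 were both on at 2 or more times and off at 2 or more. Splits at 2 or more times were found in 56 of the 123.

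The times 0 and 4 h, with 2 libraries each, were not used for the limits on reads. At 0 or 4 h 23 of the 123 genes were split as well (18.7%, exact binomial 95% interval 12.2% to 26.7%), against 7 of the 11462 other abundant genes (0.0611%). Since 48 of those others were off in any library, against all of the 123 by choice, the gap between these shares is a description and was not tested. At 0 h 14 of the 123 were split and at 4 h 10, with 1 split at both. Of the 23 genes 20 belonged to the 89 and 3 to the genes of a single library. The interval treats genes as independent, which genes of 1 leaf sample are not, and both counts share the same 4 libraries. Without 0 h replicate 2 or 3 the share was 8.13% and 8.8%, and without either 4 h library 10.1%, since the time concerned then has 1 library and cannot be split.

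The most abundant of the 89 genes was TRINITY_DN213093_c8_g1, with a mean of 223 CPM. It had 0.0529 and 811 CPM in the 0 h leaves, 0.0488, 0.619 and 0 CPM in the 0.5 h leaves, 841 and 811 CPM in the 4 h leaves, 1103, 0 and 0.0775 CPM in the 12 h leaves, 0.0711, 0.0618 and 0 CPM in the 24 h leaves and 0.109, 0.0667 and 0.0307 CPM in the 48 h leaves. It was therefore on at close levels in 0 h replicate 3, both 4 h libraries and 12 h replicate 1, and off or at most 0.619 CPM in the other 12 libraries. Its component held no other gene.

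TRINITY_DN202201_c6_g1 (mean 203 CPM) followed another order. It had 233 and 18.8 CPM in the 0 h leaves, 103, 0.265 and 168 CPM in the 0.5 h leaves, 49.6 and 0 CPM in the 4 h leaves, 0.219, 0.491 and 94.7 CPM in the 12 h leaves, 0.0388, 338 and 217 CPM in the 24 h leaves and 1155, 690 and 180 CPM in the 48 h leaves. It was below 1 CPM in 1 library each at 0.5, 4 and 24 h and in 2 at 12 h, and highest at 48 h. TRINITY_DN205721_c3_g1 (mean 101 CPM) had 97.1 and 19.9 CPM in the 0 h leaves, 39.3, 0.0344 and 57.5 CPM in the 0.5 h leaves, 0.172 and 0.211 CPM in the 4 h leaves, 0.131, 525 and 73.6 CPM in the 12 h leaves, 378, 132 and 259 CPM in the 24 h leaves and 8.95, 12.6 and 5.89 CPM in the 48 h leaves. It was lowest in 0.5 h replicate 2, both 4 h libraries and 12 h replicate 1, of which the last 3 were among the libraries where TRINITY_DN213093_c8_g1 was on.

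Some genes named after their values were seen show how clean the states could be. TRINITY_DN204979_c1_g2 had 0 and 75.6 CPM in the 0 h leaves, 145 and 172 CPM in the 4 h leaves, 215, 0 and 0 CPM in the 12 h leaves and 341, 96.2 and 38.7 CPM in the 48 h leaves. At 0.5 h it had 0.0566, 0 and 0 CPM and at 24 h it had 0 reads in all 3 libraries, so that 7 libraries were on, 9 off and none between. TRINITY_DN212992_c4_g4 had 128 and 191 CPM in the 0 h leaves, 0.0575, 0.1 and 37.5 CPM in the 0.5 h leaves, 76.6 and 60.9 CPM in the 4 h leaves, 45.3, 0 and 112 CPM in the 12 h leaves, 0, 64.7 and 223 CPM in the 24 h leaves and 0 reads in all 3 libraries at 48 h. TRINITY_DN204381_c3_g1 was off in 0.5 h replicate 2 with 0.0344 CPM and on in the other 15 libraries at 33.1 to 141 CPM. A gene could thus be missing from 1 library of an otherwise steady set, or change state within 3 of the 6 times.

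**Figure D3:**
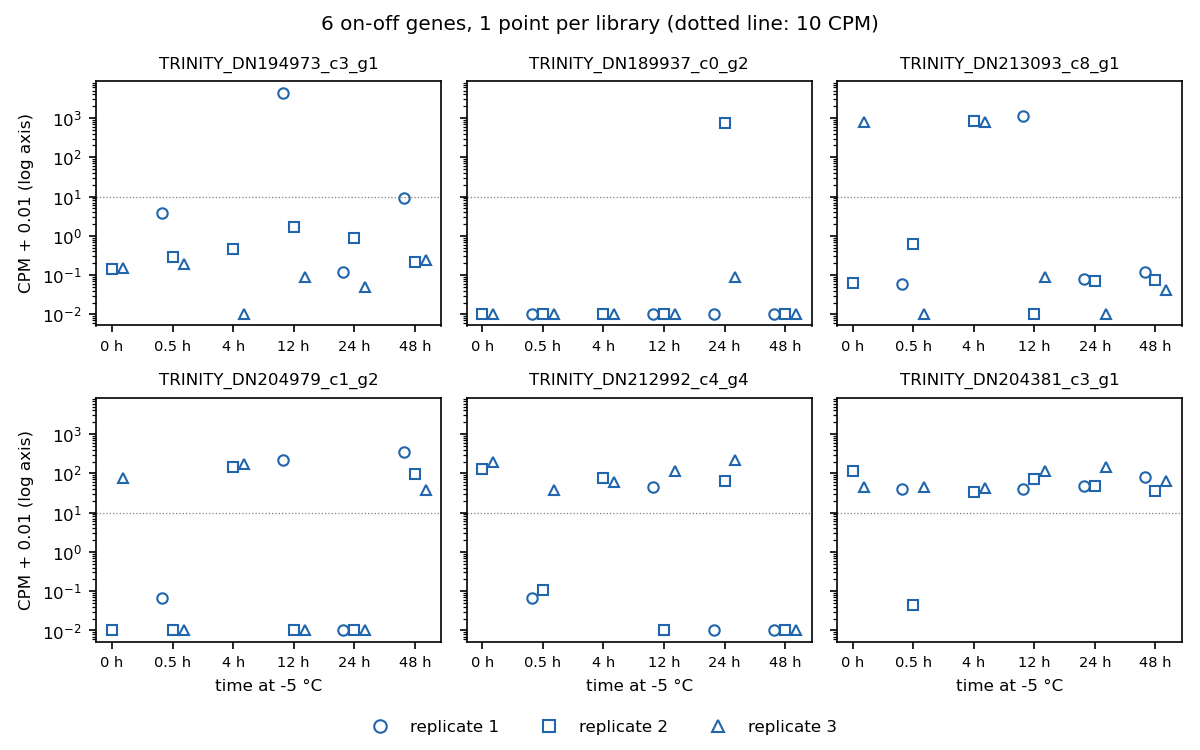
Level of 6 genes in each library as CPM + 0.01 on a log axis against time at -5 °C, with 1 symbol per replicate number and a dotted line at 10 CPM. The first 2 genes were high in 12 h replicate 1 or 24 h replicate 2, at 4443 and 768 CPM, and the other 4 were on in libraries of several times.

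The same sets of libraries were off together for genes of different components. The 123 genes showed 74 distinct sets of off libraries, 55 of them in 1 gene each, and 68 genes shared a set with another gene. Being off in 0.5 h replicate 2 alone was found in 8 genes of 8 components. Being off in 12 h replicate 2 and 24 h replicate 1, and in no other library, was found in 8 more genes of 8 components. The most abundant of these 8, TRINITY_DN204553_c0_g1, had 118, 0.0694 and 10.7 CPM in the 12 h leaves, 0, 17.5 and 43.5 CPM in the 24 h leaves and 24.2 to 196 CPM in the other 10 libraries. A further 4 genes of 4 components were off in both 4 h libraries and 12 h replicate 1 only, and 4 in 4 h replicate 3 and 12 h replicate 1 only. In 12 h replicate 2 34 of the 89 genes were off and in 24 h replicate 1 36, with 26 off in both. Against these 26, 4 were off in 12 h replicate 2 and on in 24 h replicate 1, and 1 was the reverse.

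All 120 pairs of libraries were compared over the 89 genes, counting in each pair the genes that were on or off in both libraries and the share of these in the same state. Of 71 such genes 71 had the same state in 24 h replicate 3 and 0 h replicate 2, 55 on and 16 off. In 24 h replicate 2 and 12 h replicate 3 74 of 75 had the same state, 69 on and 5 off. For 12 h replicate 1 it was 66 of 68 with 4 h replicate 3, 41 on and 25 off. With 4 h replicate 2 it was 61 of 66, 44 on and 17 off. In 24 h replicate 1 and 12 h replicate 2 it was 59 of 64, 33 on and 26 off. The share depends on how many genes are off in each library, and a level for unrelated states was not worked out. Of the 6 closest pairs 5 joined libraries of different times, and the other was 48 h replicates 2 and 3 with 68 of 69. At the other end, 12 h replicate 2 and 4 h replicate 3 had the same state in 34.5% of genes, and the lowest pair of 1 time, 24 h replicates 1 and 3, in 38.8%. For 12 of the 16 libraries the closest library was of another time. Most pairs, 106 of 120, join different times, and a library has at most 2 others of its own time, so neither count by itself marks different times as closer.

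Pairs of different times had the same state in a median of 64.2% of genes (range 34.5% to 100%, 106 pairs), and pairs of the same time in a median of 72.0% (range 38.8% to 98.6%, 14 pairs). The ranges overlapped almost fully. The replicate number did not mark the close pairs: pairs of different times with the same number had a median of 64.5% (36 pairs) and those with different numbers 64.2% (70 pairs). The on-off limits chose genes that differ within a time, which lowers the share for pairs of the same time, so the medians are given without a test. The pairs share libraries and are not independent.

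The same pairs stood out in genes that the limit on the mean had left out. In all, 947 less abundant genes with a mean of 1 to 10 CPM met the same limits on reads and had under 90% of their reads in 1 library. They too were thus chosen to differ within a time, which lowers the share for pairs of the same time. They are no independent check of the pairs. In them 396 of 401 had the same state in 12 h replicate 1 and 4 h replicate 3, 273 of 277 in 24 h replicate 2 and 12 h replicate 3, and 367 of 377 in 24 h replicate 3 and 0 h replicate 2. Next came 12 h replicate 1 and 4 h replicate 2 with 329 of 346, and 24 h replicate 1 and 12 h replicate 2 with 345 of 374. These are 5 of the 6 closest pairs in each of the gene sets, and 13 of the 16 libraries had the same closest library in both. With the 917 less abundant genes of components that held none of the 123 genes, the 5 pairs had the same state in 94.1% to 99.0% of genes. Across the 120 pairs the shares in the 89 and the 947 genes had a Pearson correlation of 0.782, given as a description since all pairs share the same 16 libraries. The share in the 89 genes followed the rank correlation of the other 11462 abundant genes less closely, with a Pearson correlation of 0.288 over the same pairs. The pair of 24 h replicate 3 and 0 h replicate 2 ranked first of 120 by the states of the 89 genes and 49th by that rank correlation, which was 0.769. The other 4 of the 5 shared pairs were also close by the rank correlation: 12 h replicate 1 ranked 3rd with 4 h replicate 2 and 7th with 4 h replicate 3, 24 h replicate 2 ranked 10th with 12 h replicate 3, and 24 h replicate 1 ranked 17th with 12 h replicate 2.

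**Figure D4:**
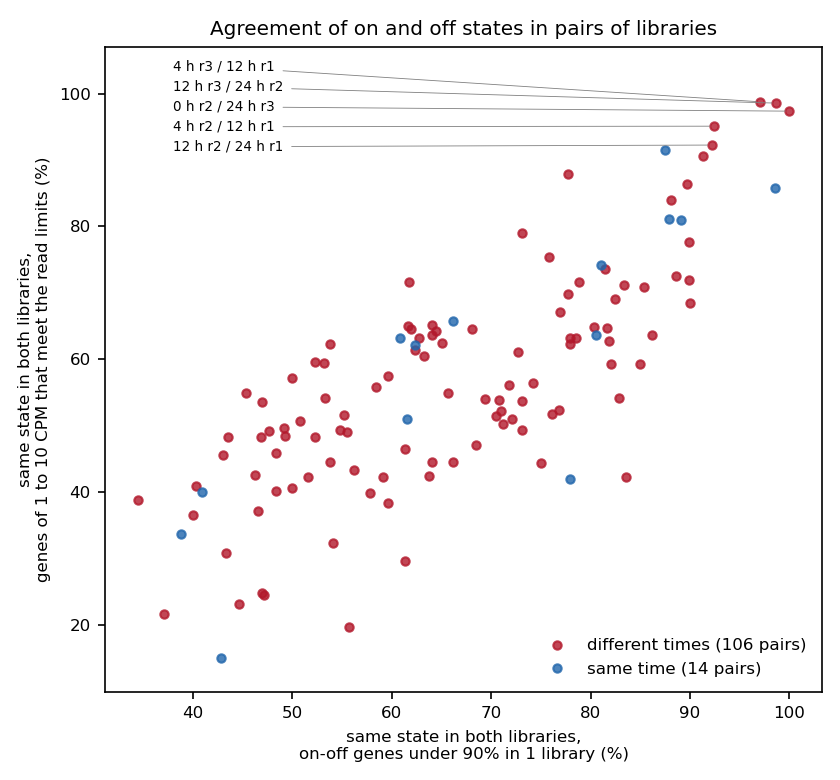
Share of genes in the same on or off state for each of 120 pairs of libraries, in the 89 genes (x axis, %) and in 947 less abundant genes that met the same limits on reads (y axis, %), red for different times and blue for the same time. The 5 labelled pairs, all of different times, lie above 92% on both axes.

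Whether genes of one component took each other's place was asked next. A gene of the same component counts as replacing an on-off gene if it had at least 100 reads in a library where the on-off gene had at most 2, and the reverse in another library. This was found for 2 of the 123 genes (1.63%, exact binomial 95% interval 0.198% to 5.75%). Of the 40 on-off genes that share a component with another gene of at least 10 CPM it was found for the same 2, and of the 6134 abundant genes that share a component in this way it was found for 3 (0.0489%). These 3 include the same 2 genes, and the third is the partner of one of them. A replaced gene must be off in some library, which the rule required of the 123 genes and which held for 48 of the 11462 other abundant genes, so this contrast follows from the choice of genes. Under the alternatives of read limits and mean level the share was between 1.63% and 3.21%. Without both 12 h replicate 1 and 24 h replicate 2 it was 4.35%.

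The more abundant case was TRINITY_DN205494_c1_g6 with TRINITY_DN205494_c1_g3, means 49.3 and 61.9 CPM. The g6 gene had 51.2 and 84.8 CPM in the 0 h leaves, 44.1, 88.6 and 52.5 CPM in the 0.5 h leaves, 97.2 and 82.8 CPM in the 4 h leaves, 51.6, 0 and 15.1 CPM in the 12 h leaves, 0.0366, 22.9 and 129 CPM in the 24 h leaves and 0.11, 33.4 and 36.2 CPM in the 48 h leaves. The g3 gene had 0 and 4.42 CPM in the 0 h leaves, 91.6, 0.138 and 0.113 CPM in the 0.5 h leaves, 26.4 and 7.9 CPM in the 4 h leaves, 7.19, 265 and 74.5 CPM in the 12 h leaves, 145, 19.8 and 0.279 CPM in the 24 h leaves and 182, 49.3 and 117 CPM in the 48 h leaves. The g3 gene was at its 3 highest levels in the 3 libraries where the g6 gene was at or near 0, and the g6 gene was on in the 4 libraries where the g3 gene was below 1 CPM. The levels of the pair, as log2(CPM + 0.1), had a Pearson correlation of -0.61 over 16 libraries, a description of 1 pair picked for this pattern. The other genes of the component, g3 among them, summed to a mean of 1718 CPM where the g6 gene was on and 1574 CPM where it was off.

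In the other case TRINITY_DN211888_c6_g2 was off in 12 h replicate 2 with 0 reads and on in the other 15 libraries at 5.63 to 33.7 CPM. Its partner TRINITY_DN211888_c6_g5, with a mean of 2.77 CPM, had 0, 12.4 and 13.9 CPM in the 12 h leaves, 10.1, 4.24 and 0 CPM in the 24 h leaves, 0, 0 and 0.232 CPM in the 48 h leaves and at most 3.37 CPM at the earlier times. In 12 h replicate 3 and in 24 h replicates 1 and 2 both genes were on, so their states were not exclusive. The other genes of the component, g5 among them, summed to a mean of 2258 CPM where the g2 gene was on. In 12 h replicate 2, where it was off, they summed to 210 CPM, so most of the component was lower there as well. Only 1 replacing pair had both genes at 10 CPM or more, so the 5 pairs that were to be named could not be filled.

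More often the other genes of the component were also low where the on-off gene was off. Among the 89 genes, 59 had other genes in their component that summed to a mean of at least 1 CPM. Where the on-off gene was off, the sum of these others was more than 2-fold lower than where it was on in 38 of the 59, within 2-fold in 21, and more than 2-fold higher in 0, on the log2(CPM + 0.1) scale. The median log2 difference, off minus on, was -2.62. In 18 of the 59 the other genes had at least 100 reads in every library where the on-off gene was off. The correlation of the on-off gene with the rest of its component over 16 libraries had a median of 0.721 in the 59 genes, against 0.780 in 9397 other abundant genes with such a component. It was above 0.5 in 57.6% of the 59 and 77.9% of the others, and below -0.5 in 3.39% and 0.479%. Genes of a component share sequence and may share reads, and neither correlation was tested.

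**Figure D5:**
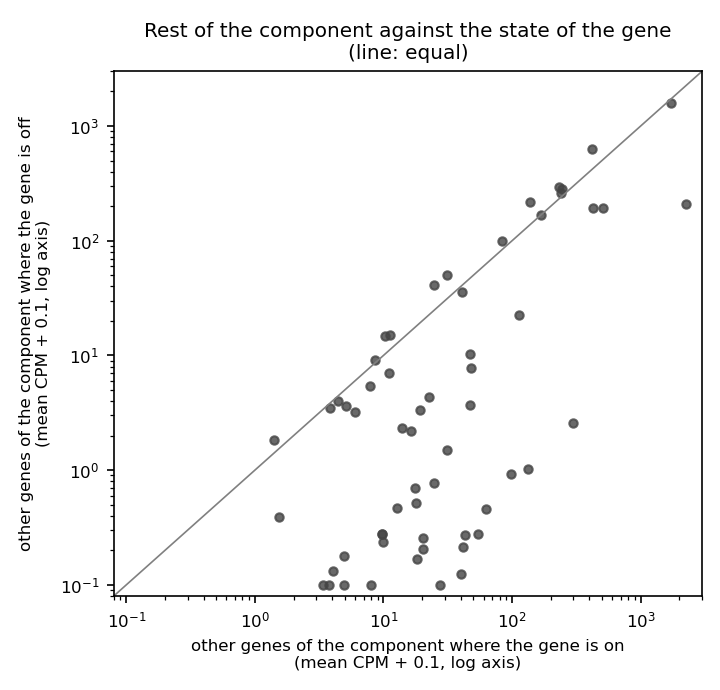
Summed level of the other genes of the component in libraries where the on-off gene was off (y axis) against libraries where it was on (x axis), as mean CPM + 0.1 on log axes, 1 point for each of 59 genes and a line where both are equal. No point lies more than 2-fold above the line, and 38 lie more than 2-fold below it.

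Summed over components, the on-off limits at the 4 times were still met by 61 of the 118 components and no longer by 57. All 24 components of a single gene were necessarily among the 61, and of the 94 components with more than 1 gene 37 still met the limits. Across components, pairs of genes with the same or opposite states were counted as well. To be opposite throughout, 1 gene of a pair must be off in each shared library, and 56 of the 89 genes were off in only 1 to 3. Many pairs could therefore not be opposite, and nothing on replacement is read from these counts. Of 2093 pairs among the 89 genes that shared at least 12 libraries with a state in both genes, 134 had the same state in all of them and 1 had the opposite state in all. That pair, named for this reason after its values were seen, was TRINITY_DN213093_c8_g1 and TRINITY_DN209498_c1_g1. The second of these had 11.8 and 0.728 CPM in the 0 h leaves, 0 CPM in both 4 h libraries and in 12 h replicate 1, and 5.06 to 57.9 CPM in the other 11 libraries. It lay in another component.

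The 123 genes differed from other abundant genes in properties that the rule did not set directly. The groups were not matched on mean level, with medians of 16.2 and 25.3 CPM, and the limit on the mean was not corrected for length. The 123 genes stood alone in their component in 24 cases (19.5%), against 491 of the 11462 others (4.28%). Their components held a median of 4 genes, against 5. Their relative length, the ratio of the count to the authors' scaled value within a library set to 1 for the median abundant gene, had a median of 0.463 (quartiles 0.221 and 0.895), against 1.00 (quartiles 0.555 and 1.67) for the others. It was 0.460 in the 89 genes and 0.498 in the 34. The longest was TRINITY_DN196820_c1_g2, at 6.76. A count that was not whole (further than 0.005 from a whole number), as arises where a read is divided among rows, occurred in at least 1 library for 67 of the 123 genes (54.5%) and for 2565 of the others (22.4%). For the 89 and the 34 genes these shares were 57.3% and 47.1%. Reads of near-identical rows can be placed on one or the other by the counting, so levels of genes with such counts are uncertain, and the part of this in the on and off states was not tested.

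Time was tested for all genes at once with edgeR's quasi-likelihood test, in which 116 of the 123 genes and all of the 89 passed the filter on low counts. Across the 6 times together 12 of the 116 were called at an adjusted p under 0.05, and 0.717% of all 68030 genes tested were called. All 12 belonged to the 20 genes of 12 h replicate 1, and none to the 89. Those 20 genes were chosen through the same 12 h values that the test uses, so nothing is read from their count against the share of all genes. The smallest adjusted p was 0.026, for TRINITY_DN201572_c1_g3, which had 1743, 0.780 and 0 CPM in the 12 h leaves. The 4 most abundant of the 12, TRINITY_DN194973_c3_g1, TRINITY_DN197087_c1_g1, TRINITY_DN198201_c2_g2 and TRINITY_DN201912_c7_g1, had adjusted p-values of 0.042, 0.047, 0.031 and 0.033 in edgeR. In each of these 4 genes, 12 h replicates 2 and 3 lay at 11.1 CPM or below. Their 12 h libraries thus comprise 1 high value and 2 that overlap the values of other times.

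These 12 calls were lost under many alternatives but not all, and the number of all genes called moved as well. Leaving out 0 h replicate 2 or 3, 0.5 h replicate 2 or 3, either 4 h library, 24 h replicate 2, or 48 h replicate 2 or 3 left 0 of the on-off genes called by edgeR. Without 0.5 h replicate 1 or 24 h replicate 1 the count of on-off genes was 1, where 366 and 391 of all genes were called. Without 24 h replicate 3 it was 3, where 425 were called, and without 12 h replicate 3 it was 20, where 574 were. Without 12 h replicate 1 it was 11, none of them among the 12, where 757 of all 67255 genes tested were called. With 24 h replicate 2 also left out it was 6, where 483 of 65362 were. With robust shrinkage 0 were called, where 500 of all genes were. DESeq2 called 8, of which 1 was among the 12, where 3475 of all genes were called. With RLE size factors in place of TMM 11 of the 12 were kept (458 of all genes called), with library size alone 10 (385) and with all 18 columns 12 (582). Leaving out 12 h replicate 2 or 3 kept all 12 (442 and 574 of all genes called), and leaving out 48 h replicate 1 kept 7 (274).

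Against 0 h, edgeR called 0 of the 116 genes at 0.5, 4, 12, 24 or 48 h, where 0.0911% of all genes tested were called at any of these times. Time by time, 0.00588% of all genes were called after 0.5 h, 0% after 4 h, 0.022% after 12 h, 0.0323% after 24 h and 0.0779% after 48 h. At an unadjusted p under 0.05 edgeR gave 56 of the 116 genes across the 6 times, where 12.2% of all genes passed. Against 0 h at any time it gave 68, where 21.6% of all genes passed. The rule chose the 116 genes for large contrasts in the same libraries, so nothing is read from these counts against the shares of all genes. For the 89 genes the smallest adjusted p across times was 0.061, for TRINITY_DN211618_c1_g1 (named after its values were seen), and the next was 0.085, for TRINITY_DN213093_c8_g1, in edgeR. Replicates varied widely in this fit, which had 10 degrees of freedom for the spread and a typical coefficient of variation of 69.3% between replicates. A p that misses the threshold does not show that these genes kept one level over time. With the genes of each component summed, edgeR called 9 of the 113 components tested that hold an on-off gene, where 0.668% of 29804 components were called, and the same limit holds for this count. Leaving out any single library other than those of 12 h brought this count to between 0 and 4.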

How the data were processed

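RNA of leaves was made into libraries with the MGIEasy mRNA kit and sequenced on a BGI-seq instrument, per the labels' protocols. The submitters' processing notes name Trimmomatic 0.36 and FastQC. How reads were aligned and counted is not given in the sources used here. Estimated counts per Trinity gene stand in the table the authors deposited, and a second table deposited by them holds a scaled expression signal, which is used for relative length and 1 alternative.

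CPM was the count divided by the column total. Time was tested with edgeR 4.0.16 (quasi-likelihood F test on rounded counts, filterByExpr, TMM factors, 1 level per time) in R 4.3.3, with Benjamini-Hochberg adjustment over all genes tested and a threshold of 0.05. DESeq2 1.42.0 and limma 3.58.1 served as alternatives, and Python 3.11.15 with pandas 2.3.3 for the rest. The edgeR step was tested on simulated data with a common spread for all genes and no on-off genes. That test does not cover genes of the kind described here. Members and lists were chosen with earlier results of these data known. Genes were named as the 10 of highest mean, replacing pairs with both means of at least 10 CPM, and the 4 most abundant called genes. Others are marked as named after their values were seen. Intervals and floors cover counting error only.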

Additional observations from a re-analysis of the deposited data

Results flagged for a closer look

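The values that the labels give to both 0 h replicate 1 and 4 h replicate 1 were used in no comparison, and they hold on-off genes as well. In this set of values 61 of the 123 genes were on, 37 were off and 25 were between. Of the 89 genes with under 90% of their reads in 1 library, 60 were on and 17 off, and of the 34 genes of a single library 1 was on and 20 off. The states of the 89 genes were the same as in 0 h replicate 2 for 72 of 72 genes, in 24 h replicate 3 for 70 of 72 and in 0.5 h replicate 3 for 61 of 66, and the lowest share was 42.2%, with 12 h replicate 2. In the 947 less abundant genes the share was 94.8% with 24 h replicate 3, 93.2% with 0 h replicate 2 and at its lowest, 31.4%, with 4 h replicate 2. No time is assigned to these values.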

How the results depend on the processing

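The number of on-off genes was 280 with a mean of at least 5 CPM, 47 with 20 CPM and 69 without both 12 h replicate 1 and 24 h replicate 2, of which 65 were among the 123. That last alternative was added after seeing the data. With single libraries left out it was 84 (without 12 h replicate 1) to 129. The share also split at 0 or 4 h was 8.13% to 21.4% with single libraries left out and 14.4% to 24.0% otherwise. The share on in a library of every time was 16.9% with on at 200 reads, 42.0% without both libraries, and 19.2% to 34.5% (without 12 h replicate 1) with single libraries left out. The share with a replacing gene was 0.813% to 3.57% with single libraries left out.

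For calls across the 6 times, against 0 h, and of component sums across the 6 times, no filter on low counts gave 111, 103 and 99, where 15362 of 202727 genes were called across the times. An adjusted p under 0.01 gave 0, 0 and 0, robust shrinkage 0, 0 and 3, all 18 columns 17, 0 and 16, and DESeq2 8, 19 and 17, with 31 on-off genes left without an adjusted p. Across the times DESeq2 called 3475 of all genes. The edgeR test called 488 in its main setting, 120 at an adjusted p under 0.01, 500 with robust shrinkage and 582 with all 18 columns. On the authors' scaled table limma gave 0 across the times, where 948 of all genes were called, and 1 against 0 h. Without both libraries edgeR gave 6 across the times, where 483 of all genes were called. Single libraries left out gave 0 to 20, 0 to 0 and 0 to 19. The cause of these shifts was not tested. Under these alternatives and with single libraries left out, calls against 0 h and of component sums were not counted over all genes or components. Nothing is therefore read from those counts.

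With the replicate number as a block the counts were 1, 0 and 1, where 228 of all genes were called across the times. No sign that the numbers pair the samples was seen. Residuals of same-numbered libraries of different times had a median correlation of -0.056 (range -0.340 to 0.376), and 6 of 36 such pairs were above 0.1. Of the 16 libraries 3 correlated best with their own number. The pairs share libraries, so a pairing is not excluded.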
